A study of Mus musculus with 2 samples.

Results

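The distal autosome ends are the stretches of each autosome that lie farthest from the centromere, and the methylated regions listed there were described in 2 liver libraries. A region was taken as distal when it started within 3 Mb of the end of the last Pemt+/+ region on its chromosome, on any of the 19 autosomes. This rule took 2279 of 95650 autosomal regions in the Pemt-/- mouse and 3091 of 129116 in the Pemt+/+ mouse, of 97063 and 131279 listed in all. The windows spanned 57 Mb together.

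The Pemt-/- mouse lacked phosphatidylethanolamine N-methyltransferase, a liver enzyme that makes phosphatidylcholine with methyl groups from S-adenosylmethionine, and the Pemt+/+ mouse was its wild-type control. Both received high fat-high sucrose (HFHS) chow, from 5 weeks of age in the sample records. Those records give a liver age of 25 weeks for both libraries. The paper's methods instead describe livers taken after 1 to 4 weeks of feeding for the enrichment, and this conflict was not resolved. The deletion is carried in every cell of the animal, not in hepatocytes alone, and whole liver was used, so that the cells contributing DNA were not separated. Each genotype was 1 library, called a mouse here. The paper's methods name several mice per genotype for this part. Whether a library came from 1 animal or a pool is not given. With 1 library each, no difference was tested, no p-value is given, and genotype, animal and sequencing depth cannot be told apart. Intervals are 95% and cover counting error only, since regions are not independent of each other.

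Methylated cytosines in mammalian DNA lie mostly in CpG dinucleotides, and a protein that binds methylated DNA pulls down fragments in which they are dense. Mouse autosomes have their centromere at one tip, so that the other end is the one far from it, where gene-rich stretches alternate with gene-poor ones. Several of these ends carry well studied loci, among them the imprinted cluster of chromosome 7 with H19, Igf2 and Kcnq1, in which methylation inherited from one parent sets which copy is active, and the keratin and Hoxc clusters of chromosome 15.

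The label was checked against the lists. The first listed Pemt+/+ region of every autosome started between 2999937 and 3177127 bp, so that the unlisted start of each chromosome lay at the low coordinates and the distal end at the high ones. The last Pemt-/- region ended between 94314 bp before and 13854 bp after the last Pemt+/+ region of its chromosome. The window ends were set by a region, so each last Mb held at least that region by construction.

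Few distal regions overlapped the 5′ end of a transcript, and the promoters of 4 such genes are shown as examples from the 9 genes that had such a region in both mice. Pnlip encodes pancreatic lipase. The 1700011F14Rik gene is a RIKEN transcript, also on chromosome 19. Tex19.1 and Gtsf1 are germ-line genes, the first a guard against retrotransposons and the second a factor of the piRNA pathway, and this pair was chosen after the values were seen. Each sequence is the 250 bases before the single RefSeq start of the gene in GRCm38.p6, 5′ to 3′ along the gene, with CG in capitals. They lie at chr19:58670115-58670364 (plus strand), chr19:58511735-58511984 (plus), chr11:121145893-121146142 (plus) and chr15:103430428-103430677 (minus). The regions themselves are in mm9, so that the positions cannot be laid over each other.
Pnlip: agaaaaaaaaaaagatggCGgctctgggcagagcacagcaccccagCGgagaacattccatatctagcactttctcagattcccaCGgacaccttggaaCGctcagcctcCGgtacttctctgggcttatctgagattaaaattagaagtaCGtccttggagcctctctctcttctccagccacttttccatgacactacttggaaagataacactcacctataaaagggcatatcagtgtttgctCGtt
1700011F14Rik: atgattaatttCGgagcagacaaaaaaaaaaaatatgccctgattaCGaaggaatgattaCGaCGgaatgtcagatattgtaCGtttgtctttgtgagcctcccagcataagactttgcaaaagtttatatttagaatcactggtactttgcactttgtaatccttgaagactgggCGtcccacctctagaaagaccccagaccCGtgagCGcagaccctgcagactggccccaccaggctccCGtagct
Tex19.1: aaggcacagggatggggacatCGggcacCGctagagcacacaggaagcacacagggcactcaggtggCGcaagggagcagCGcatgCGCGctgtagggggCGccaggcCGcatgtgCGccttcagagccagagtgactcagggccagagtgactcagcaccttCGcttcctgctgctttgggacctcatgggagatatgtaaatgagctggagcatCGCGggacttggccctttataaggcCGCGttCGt
Gtsf1: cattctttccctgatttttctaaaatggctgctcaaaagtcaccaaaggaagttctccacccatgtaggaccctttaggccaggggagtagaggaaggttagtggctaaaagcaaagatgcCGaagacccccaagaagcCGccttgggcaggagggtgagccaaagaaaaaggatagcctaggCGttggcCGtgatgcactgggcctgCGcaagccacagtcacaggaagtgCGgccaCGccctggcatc

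CG reads the same on both strands, and 92.13% of the 32851 RefSeq promoters of this length held at least 1, with a median of 6 and quartiles of 2 and 16. The Pnlip promoter held 7, that of 1700011F14Rik 9, that of Tex19.1 15 and that of Gtsf1 7. At Pnlip the region carried 26 tags (sequenced fragments counted inside it) in Pemt-/- at chr19:58744387-58745257 and 53 in Pemt+/+ at chr19:58744349-58745041. At 1700011F14Rik it carried 29 and 43 tags, at Tex19.1 16 and 30, and at Gtsf1 13 and 12. The first 3 regions thus had fewer tags in Pemt-/-, as most paired autosomal regions did, and the Gtsf1 region had nearly equal tags. These letters describe the promoters and say nothing of which cytosines were methylated.

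Regions over a 5′ end were a larger share of the distal regions than of the others in both mice. They were 11 of 2279 distal regions in Pemt-/- (0.483%, Wilson interval 0.270 to 0.862) against 0.226% of the other autosomal regions, a difference of 0.257 percentage points (Newcombe interval 0.041 to 0.637). In Pemt+/+ they were 16 of 3091 (0.518%, 0.319 to 0.839) against 0.248%, a difference of 0.269 points (0.068 to 0.592). Both intervals lay above 0, but 9 of the 18 genes concerned were the same in both mice. Besides those above, the genes with a 5′ region in both mice were B3galt5, a glycan galactosyltransferase, with 27 and 48 tags, the mucosal keratin gene Krt4 with 25 and 29, Dysfip1 with 15 and 31, Timm8a2 with 14 and 26, and the hair keratin gene Krt82 with 9 and 12. Of the 18 genes, 14 were matched to the RefSeq promoters and 11 had a single start, with a median of 7 CG and a range of 0 to 15. Regions over a 3′ end were 1.01% of the distal regions in Pemt-/- against 0.624% elsewhere, and 0.809% against 0.597% in Pemt+/+. The difference was 0.385 points in Pemt-/- (0.045 to 0.888) and 0.212 in Pemt+/+, where its interval included 0 (-0.052 to 0.597).

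Averaged over all 19 chromosomes, the distal ends held methylated regions at the same density as the rest of the autosomes. There were 39.98 distal regions per Mb in Pemt-/- against 39.6 per Mb elsewhere, a ratio of 1.009 (Poisson interval 0.968 to 1.052). Pemt+/+ had 54.2 against 53.5 per Mb, a ratio of 1.014 (0.979 to 1.051). The opposite ends, the 3 Mb beginning with the first listed region, held 37.2 and 50.1 regions per Mb. Regions covered 1026.0 kb of the distal windows in Pemt-/- and 1413.2 kb in Pemt+/+. This average depended on the window and on chromosome 5. A window of 1 Mb gave ratios of 0.657 and 0.684, a window of 5 Mb gave 1.21 and 1.23, and leaving out chromosome 5 gave 0.953 and 0.963.

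The regions themselves were alike in size. The median was 13 tags in Pemt-/- both in the distal ends and elsewhere, with distal quartiles of 10 and 18 and a range of 8 to 163. In Pemt+/+ it was 17 in both places, with distal quartiles of 12 and 25 and a range of 9 to 270. The mean distal region held 15.55 tags in Pemt-/- against 16.3 elsewhere, and 20.9 against 21.7 in Pemt+/+. Tags per Mb were 621.7 against 644.5 in Pemt-/-, a ratio of 0.965 (0.919 to 1.013), and 1131.5 against 1159.1 in Pemt+/+, a ratio of 0.976 (0.935 to 1.019). The fold enrichment that the caller gave over its background averaged 18.4 and 18.6 in the distal ends, against 18.6 elsewhere in each mouse.

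Within the distal windows the density was not even, and the terminal Mb held the fewest regions. It held 26.1 regions per Mb in Pemt-/- and 36.7 in Pemt+/+. The next Mb held 37.4 and 49.5, and the third Mb inward 56.5 and 76.5. The climb went on outside the window, to 69.3 and 94.97 per Mb between 5 and 7.5 Mb from the end, and then gave way to 49.97 and 67.9 per Mb between 15 and 20 Mb. The last Mb over the third Mb, a comparison chosen after the values were seen, was 0.462 in Pemt-/- (0.416 to 0.514) and 0.480 in Pemt+/+ (0.438 to 0.525). It was below 1 on 16 of 19 chromosomes in each mouse, and the last Mb was above the third on chromosomes 7, 17 and 18.

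**Figure D1:**
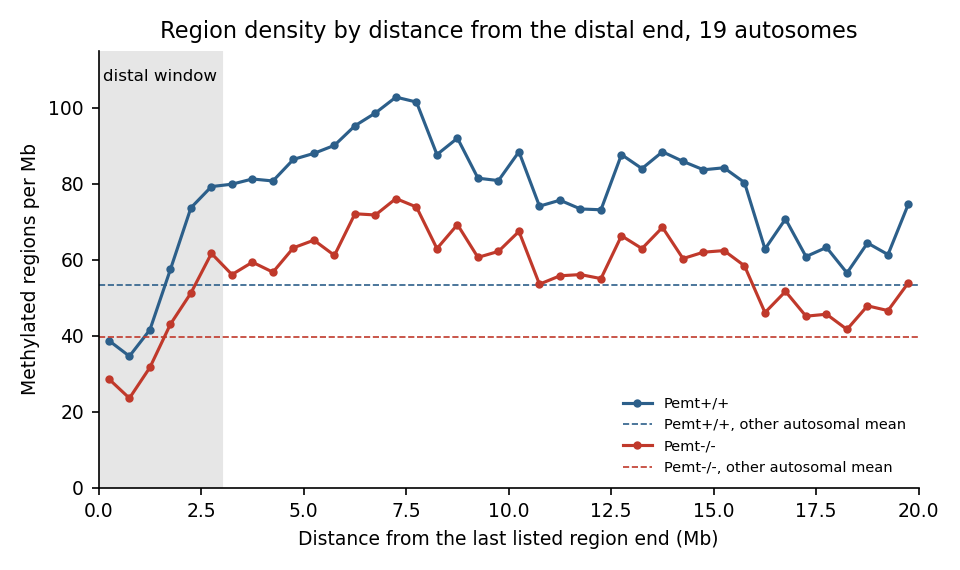
Methylated regions per Mb (vertical axis) in steps of 0.5 Mb by distance from the last listed region end (horizontal axis, Mb), summed over 19 autosomes. Red points are Pemt-/- and blue points Pemt+/+, dashed lines are the means of the other autosomal regions (39.6 and 53.5 per Mb), and the grey band is the 3 Mb window. Both mice start below their dashed line and rise above it inside the window.

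Regions nearest the end also differed in their surroundings. In the last Mb, 32.5% of Pemt-/- and 33.4% of Pemt+/+ regions lay inside or across the edge of a transcript, against 44.9% and 47.6% in the next Mb and 40.6% and 42.5% in the third. Stretches of 50 kb without any region in either mouse made up 22.6% of the last Mb, 18.7% of the next and 8.68% of the third. Over the remaining stretches the densities were 33.7, 45.95 and 61.8 per Mb in Pemt-/- and 47.4, 60.9 and 83.8 in Pemt+/+, so that the order of the 3 Mb was kept. Median tags per region moved little over the 3 Mb, lying at 12 to 13 in Pemt-/- and 16 to 17 in Pemt+/+. The part of assembly gaps and of CpG content in this gradient was not tested, because no mm9 sequence was used here.

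Tags were alike on both sides of the window limit. In the 0.1 Mb just inside it there were 110 Pemt-/- regions with a median of 12 tags (8 to 46) and 143 Pemt+/+ regions with a median of 17 (9 to 64). In the 0.1 Mb just outside there were 98 with a median of 12 (8 to 38) and 157 with a median of 16 (9 to 88). Counterparts in the other mouse were found for 84.5% of Pemt-/- regions inside and 85.7% outside. For Pemt+/+ regions they were found for 65.0% inside (93 of 143) and 53.5% outside (84 of 157). Over whole Mb the Pemt+/+ shares lay closer, at 61.5% between 2 and 3 Mb from the end and 59.8% between 3 and 4 Mb.

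Chromosomes differed far more than the mice did. Chromosome 5 had the densest distal end, with 253 regions in Pemt-/- and 332 in Pemt+/+ (84.3 and 110.7 per Mb, 1.94 and 1.86 times the rest of that chromosome). Chromosome 4 followed with 215 and 301 regions (71.7 and 100.3 per Mb, 1.911 and 1.963 times). These 2 chromosomes held 20.5% of all distal regions in each mouse. Chromosomes 2, 9, 11 and 16 stood at 1.14 to 1.40 times their own rest.

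The sparsest end was that of chromosome 18, with 40 and 51 regions (13.3 and 17 per Mb, 0.308 and 0.299 times its rest). Chromosome 3 had 48 and 64 regions (0.433 and 0.434 times) and chromosome 17 had 56 and 72 (0.409 and 0.387 times). Over the 19 chromosomes the distal density ranged from 13.3 to 84.3 per Mb in Pemt-/-, while the rest of the chromosomes ranged only from 32.4 to 50.4. In Pemt+/+ the ranges were 17 to 110.7 and 45.2 to 69.0. Distal regions lay inside or across a transcript in as few as 5.36% of cases in Pemt-/- and 5.56% in Pemt+/+, and in as many as 64.3% and 61.9%, depending on the chromosome.

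**Figure D2:**
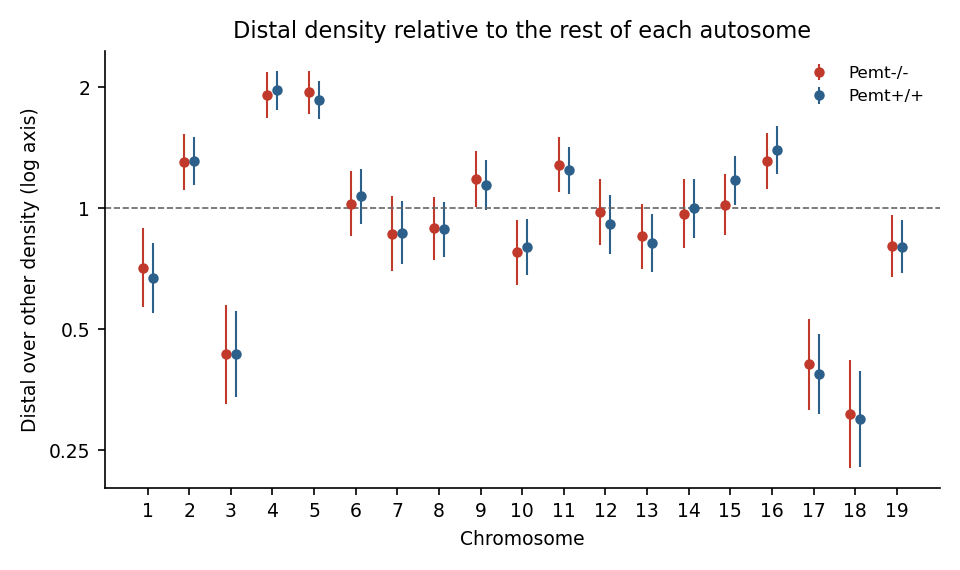
Density of distal regions divided by the density of the other regions of the same chromosome (vertical log axis, no unit) for each autosome (horizontal axis). Red points are Pemt-/- and blue points Pemt+/+, bars are 95% Poisson counting intervals of the distal count, and the dashed line marks equal density. Chromosomes 4 and 5 sit near 2 and chromosomes 3, 17 and 18 below 0.5 in both mice.

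The order of the chromosomes was shared by both animals. The 19 distal densities of Pemt-/- and Pemt+/+ had a Pearson r of 0.993 and a Spearman rho of 0.990, as a description of points that share the genome and its mappable sequence. The ratio to the rest of the chromosome lay on the same side of 1 on 18 of 19 chromosomes. Pemt+/+ had between 1.25 and 1.56 times as many distal regions as Pemt-/- on every chromosome, with a median of 1.34.

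Sharing between the mice was close to that elsewhere. Of the distal Pemt-/- regions, 1894 (83.1%, 81.5 to 84.6) overlapped a Pemt+/+ region, against 83.4% of the others. Of the distal Pemt+/+ regions, 1894 (61.3%, 59.5 to 63.0) overlapped a Pemt-/- region, against 61.7%. The Pemt+/+ difference of -0.453 points (-2.20 to 1.27) included 0, but was -2.77 (-5.31 to -0.264) for the better-scoring 50% of regions and -1.41 (-2.67 to -0.174) with a window of 5 Mb. The 385 distal regions found in Pemt-/- only were 16.9%, where 16.7% of all autosomal regions were, and the 1197 found in Pemt+/+ only were 38.7%, where the share was 38.3%. Distal regions without a counterpart were small, with a median of 10 tags in Pemt-/- against 14 for shared ones, and of 12 against 22 in Pemt+/+.

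**Figure D3:**
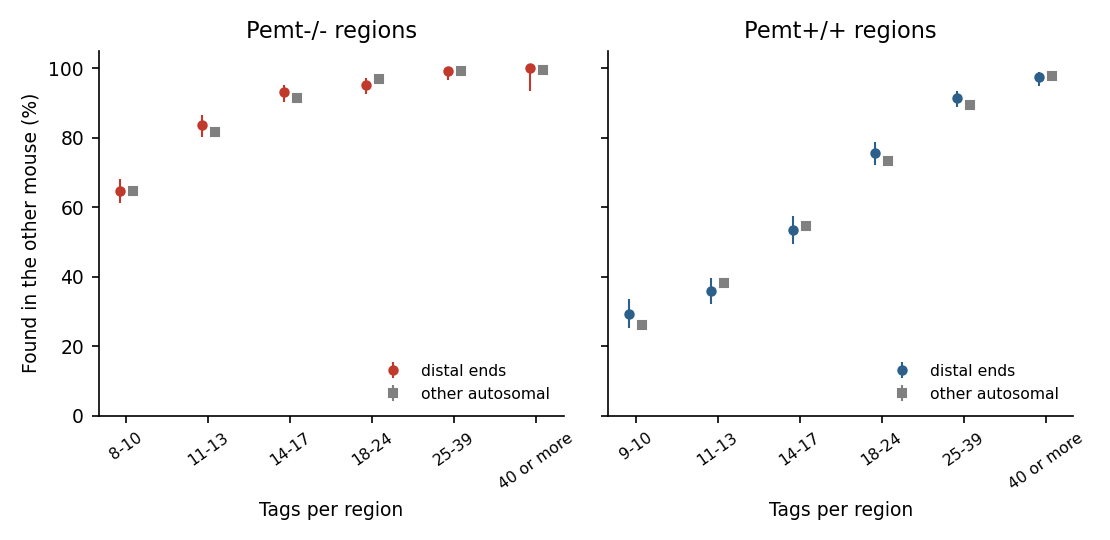
Share of regions that overlapped a region of the other mouse (vertical axis, %) by tags per region (horizontal axis), with Pemt-/- regions on the left and Pemt+/+ regions on the right. Coloured circles are the distal ends, grey squares the other autosomal regions, and bars 95% Wilson intervals. From 8 to 10 tags up to 40 or more, the share climbs between 64.7% and 100% for the distal Pemt-/- regions and between 29.3% and 97.6% for the distal Pemt+/+ ones, close to the grey squares.

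Some unshared distal regions had high scores, and the 5 highest in Pemt+/+ all stood in the shorter list that was also deposited for that mouse. The Pemt+/+ region in Nploc4, a cofactor in the extraction of ubiquitinated proteins, at chr11:120294746-120295029 carried 25 tags, and the nearest Pemt-/- region lay 45290 bp away. A Pemt+/+ region at chr15:101173534-101173834, 6167 bp from the 3′ end of the keratin gene Krt80, carried 23 tags with the nearest Pemt-/- region 34107 bp away. The Pemt-/- region with the highest score and no counterpart, at chr13:118222747-118222995, had no transcript within 10 kb and carried 15 tags. The next, inside Kcnq1 at chr7:150443385-150443774, carried 17 tags, and the nearest Pemt+/+ region lay 7531 bp away. Eif3a, a subunit of a translation initiation factor, held a Pemt-/- region of 14 tags that lay 622 bp from a Pemt+/+ region of 22 tags.

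A shorter list was deposited for each mouse, and its members were no more frequent at the distal ends. In Pemt-/- 43 distal regions (1.89%) stood in it at the same position, where 2.12% of all autosomal regions did. In Pemt+/+ there were 147 (4.76%), where 4.57% did. How the shorter lists were made is not given in the sources used here, and the false discovery rate in the file was 100% for every distal member in Pemt-/- and 22.0% to 37.5% in Pemt+/+. The strongest distal Pemt+/+ members were a region in Erg, an ETS factor of endothelial and blood cells, with 39 tags, a region at chr8:128979524-128979792 without a transcript, with 25 tags, and a region in Prdm16 with 51 tags.

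Regions found in both mice were paired one to one to compare their tags. The 1871 distal pairs had a median Pemt-/- to Pemt+/+ ratio of 0.680 (quartiles 0.542 and 0.857), against 0.682 over 76432 other pairs. In all they held 30894 tags in Pemt-/- and 47026 in Pemt+/+, so that Pemt-/- supplied 39.6% (39.31 to 39.99), against 39.9% elsewhere. Over all listed regions there were 1582080 Pemt-/- tags and 2847831 Pemt+/+ tags, and the read totals were not given in the lists, so that a ratio under 1 cannot be told apart from a shallower library. Pemt-/- had more tags than Pemt+/+ in 186 distal pairs (9.94%), against 10.4% of the others. The median ratio ranged from 0.60 on chromosome 18 to 0.750 on chromosome 6.

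Of the 465 distal pairs with at least 50 tags in all, 20 (4.30%) had a ratio at least 1.5 times the autosomal median, where 3.90% of all such autosomal pairs did. At the other side 71 (15.3%) lay at or under the median divided by 1.5, where 14.1% did. Both shares were near those of all autosomal pairs.

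Among these 465 pairs, the one with the lowest Pemt-/- share lay inside Kcnq1, a potassium channel gene whose intron is known to hold an imprinting control element. The Pemt-/- region at chr7:150480889-150481452 carried 13 tags over 564 bp and the Pemt+/+ region at chr7:150480883-150482575 carried 63 over 1693 bp. Pemt-/- thus supplied 17.1% (10.3 to 27.1), and 0.0890% of such autosomal pairs had a lower ratio. The called lengths differed, and per 100 bp the regions held 2.30 and 3.72 tags, a ratio of 0.619, so that part of the difference lay in the called length. The pair was picked as the lowest of the 465, and its interval does not allow for that choice. Whether this region is the control element was not tested.

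The second lowest of the 465 pairs lay 2558 bp upstream of Tpd52l2, a tumour protein D52 family gene, with 16 and 68 tags over 547 and 1647 bp (19.05%, 12.1 to 28.7). Per 100 bp it held 2.93 and 4.13 tags. The third lowest of them, at chr15:103450284-103450678 in Pemt-/-, had no transcript within 10 kb and held 11 and 41 tags over the similar lengths of 395 and 467 bp (21.2%, 12.2 to 34.0). Per 100 bp it held 2.78 and 8.78 tags, a ratio of 0.317, the lowest of these 3 pairs on that scale.

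High Pemt-/- shares among the pairs of at least 50 tags were near equality. They were 55.4% (42.4 to 67.6) for a pair on chromosome 17 with 31 and 25 tags and 53.3% (40.9 to 65.4) for a pair on chromosome 14 with 32 and 28 tags. Both intervals included equal tags, but lay above the distal mean of 39.6%. The pairs were picked as being among the highest, and the intervals do not allow for that choice.

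**Figure D4:**
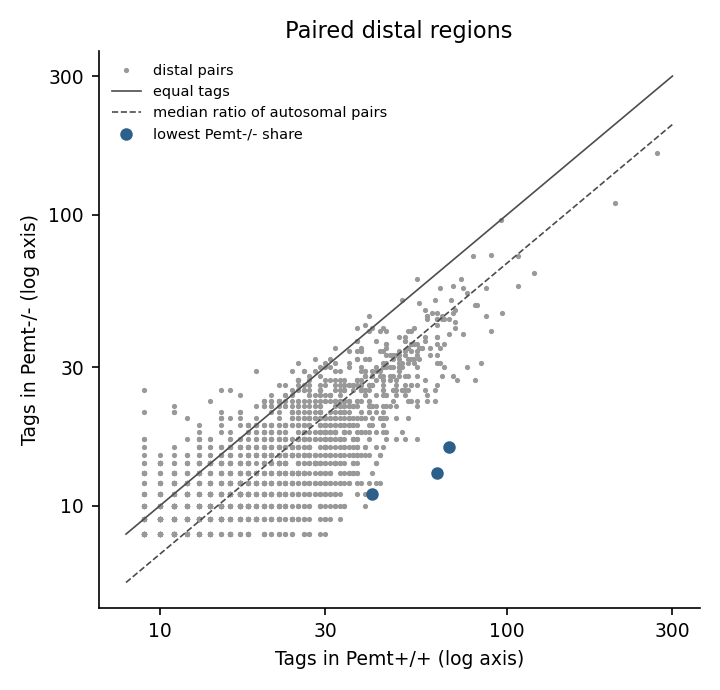
Tags in Pemt-/- (vertical log axis) against tags in Pemt+/+ (horizontal log axis) for the 1871 distal pairs, 1 grey dot each. The solid line marks equal tags, the dashed line the median ratio of autosomal pairs (0.682), and large blue points the 3 pairs with the lowest Pemt-/- share among pairs of at least 50 tags in all. Most dots follow the dashed line, and the blue points with 13, 16 and 11 Pemt-/- tags lie far below it.

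The largest distal regions stood at the very end of chromosome 13. The region at chr13:120280586-120282142 carried 163 tags in Pemt-/- and its counterpart 270 in Pemt+/+, and its neighbour at chr13:120277441-120278064 carried 110 and 205. Both lay inside the predicted gene Gm7120. Their fold enrichment of 7.57 to 12.6 was below the distal means of 18.4 and 18.6, although their tags were the highest.

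By contrast, the region in Lars2, the mitochondrial leucyl-tRNA synthetase gene, at chr9:123370941-123371611 carried 96 tags in each mouse at a fold enrichment of 52.5 in Pemt-/-. Its tags were equal in the mice, unlike those of the chromosome 13 regions. Regions without a transcript within 10 kb carried 73 and 90 tags on chromosome 4 and 72 and 108 tags on chromosome 1.

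Distal regions were assigned to 416 genes in Pemt-/- and 460 in Pemt+/+, counting a gene when the region lay in it or within 10 kb. The 10 genes with the most regions held 10.7% of distal regions in Pemt-/- and 10.2% in Pemt+/+. Cdh4, which encodes the adhesion molecule R-cadherin, had the most regions over both mice summed, 44 and 48, holding 660 and 1163 tags. Pard3, a cell polarity gene, had 40 and 50 regions with 696 and 1162 tags. Prdm16, a transcription factor of brown fat and blood stem cells, had 34 and 46 regions with 686 and 1252 tags. These 3 genes are long, and long genes can hold more regions.

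Several neuronal genes followed. Scn8a, a voltage-gated sodium channel gene, had 23 and 33 regions with 431 and 888 tags, and Dscam, a neuronal adhesion gene, had 18 and 26 regions with 250 and 429 tags. Gfra1, a receptor for the growth factor GDNF, had 23 distal regions in each mouse. Its regions ran past the window limit, and counted anywhere they were 26 in Pemt-/- and 29 in Pemt+/+. Per 100 kb of gene, regions inside Scn8a numbered 12.5 in Pemt-/- and 17.04 in Pemt+/+, inside Prdm16 10.6 and 14.01, inside Cdh4 9.63 and 10.5, and inside Dscam 3.08 and 4.45. On the per-length scale Scn8a thus ranked above Cdh4.

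Dnahc11, a ciliary dynein gene, had 19 and 23 distal regions, Kcnq1 16 and 22, Erg 12 and 24, and Parp8, a PARP family gene, 14 and 19. Erg had the largest ratio of Pemt+/+ to Pemt-/- regions of these 10 genes, and 15 of its 24 Pemt+/+ regions had no Pemt-/- counterpart, where 38.7% of distal and 38.3% of all autosomal Pemt+/+ regions had none. In the paired regions of the 10 genes, the Pemt-/- share of tags ran from 33.7% in Kcnq1 (29.3 to 38.3) to 44.2% in Dscam (40.1 to 48.3). Kcnq1 lay below and Dscam above the distal 39.6%, beyond counting error for these 2 of 10 genes. Without the pair with 13 and 63 tags, Kcnq1 stood at 37.3% (32.4 to 42.6), which included the distal value.

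**Figure D5:**
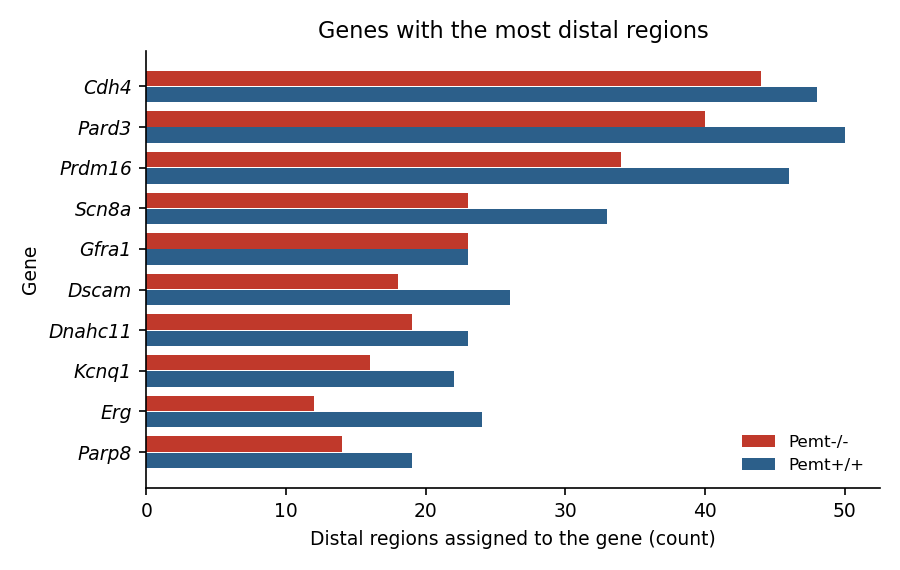
Number of distal regions (horizontal axis, count) assigned to the 10 genes with the most in both mice summed (vertical axis). Red bars are Pemt-/- and blue bars Pemt+/+. Pemt+/+ has more regions in 9 of the 10 genes, and Gfra1, which also has regions outside the window, has 23 in each.

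In the imprinted domain of chromosome 7, 12 of 19 listed genes had a distal region and 11 had one in both mice. Upstream of H19, a maternally expressed RNA, the Pemt-/- region at chr7:149767534-149768110 carried 17 tags and the Pemt+/+ region at chr7:149766763-149768082 carried 36. The Pemt+/+ region was called longer, so these counts do not cover equal lengths, and the fold enrichment was 14.3 in Pemt-/- and 13.2 in Pemt+/+. A second H19 region, over its 3′ end at chr7:149761402-149761773, carried 11 tags and was listed in Pemt-/- only. A region 8508 bp upstream of Igf2 in Pemt-/-, which also lay downstream of the insulin gene Ins2, carried 12 and 27 tags. Igf2 is a fetal growth factor gene.

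Around the rest of the domain, Nap1l4, a nucleosome assembly gene, had 3 regions in each mouse with 52 Pemt-/- and 42 Pemt+/+ tags, and Cars, a tRNA synthetase gene, had 1 with 16 and 17. Tnfrsf22 also had more Pemt-/- tags, 27 and 15 over 2 and 1 regions, and its only pair held 15 in each mouse. Fewer Pemt-/- tags were found for the transporter gene Slc22a18, with 23 and 42 over 2 regions each. The oxysterol-binding gene Osbpl5 had 8 and 29 over 1 and 3 regions, though its only pair held 8 and 10. The decoy receptor gene Tnfrsf23 had 12 and 21 over 1 and 2 regions, none of them paired. Over the whole list, with each pair counted once, there were 272 and 455 paired tags. Cdkn1c, Ascl2, Cd81, Tspan32, Tssc4 and Th had no region annotated to them in either mouse. A gene missing from the annotation cannot be told apart here from a gene without a region nearby. Kcnq1ot1, the imprinted antisense RNA of Kcnq1, carried no annotation in the lists, and without strand its methylation cannot be told apart from that of Kcnq1.

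Next to it on chromosome 7, 6 of 9 genes of the Ccnd1 and FGF neighbourhood had a distal region. Ccnd1 itself, the cell cycle gene cyclin D1, had none annotated to it in either mouse, and neither had Fgf4 or Fgf15. Shank2, a postsynaptic scaffold gene, had 11 and 16 regions, and its largest Pemt-/- region, at chr7:151596377-151597795, carried 41 tags as did its Pemt+/+ partner. Ppfia1, a liprin gene, had 5 and 7 regions, and the chloride channel gene Ano1 4 and 5. Fgf3 and the death receptor adaptor gene Fadd had regions in Pemt+/+ only, 2 with 29 tags (19 and 10) and 1 with 13. Counterparts were found for 29.3% of distal Pemt+/+ regions with 8 to 10 tags, 35.8% with 11 to 13 and 75.6% with 18 to 24.

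Few lipid genes had a distal region, 4 of 13 listed. Fasn, the fatty acid synthase gene, had 2 Pemt+/+ regions inside it, with 21 and 9 tags at chr11:120670644-120671012 and chr11:120679728-120679995, and none in Pemt-/-. Of distal Pemt+/+ regions, 75.6% with 18 to 24 tags and 29.3% with 8 to 10 tags had a Pemt-/- counterpart. Pcyt2, which makes CDP-ethanolamine for the phospholipid that Pemt methylates, had 2 regions in each mouse, and the shared one 3462 bp upstream in Pemt+/+ carried 9 and 14 tags. Dhcr7, the last enzyme of cholesterol synthesis, had 3 and 4 regions, and its largest, downstream at chr7:151041655-151042374 in Pemt-/-, carried 27 and 34 tags. Of the 8 genes the study names for its own analysis, none had a distal region, Pemt included, and 7 had regions elsewhere.

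The clusters of chromosome 15 differed from each other. None of 10 Hoxc genes, which pattern the body axis, had a region annotated to it in either mouse. Of 24 listed keratin genes, which do not include Krt82, 15 had one and 11 had one in both mice, with 17 Pemt-/- and 33 Pemt+/+ region assignments. Krt8, the keratin of hepatocytes, had 3 Pemt+/+ regions of 9 to 16 tags inside it and none in Pemt-/-, and its partner Krt18 had none in either. Counterparts were missing for many regions of this size, since 29.3% to 53.4% of distal Pemt+/+ regions with up to 17 tags had one. Krt80 had 1 Pemt-/- and 5 Pemt+/+ regions, and Krt72 had 4 in Pemt+/+ only.

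All 7 genes listed as neuronal channels and receptors had a distal region, 6 of them in both mice. Ntsr1, the neurotensin receptor gene, had 4 and 6 regions, each Pemt-/- region of Ntsr1 with fewer tags than its Pemt+/+ partner. Chrna4, a nicotinic receptor gene, had 1 region in each mouse at different places, with 8 and 27 tags. Among 8 matrix genes 3 had distal regions, with 3 and 6 for Agrn, which encodes agrin, and 3 and 5 for the laminin gene Lama5. Another 2 of the 8 had regions only outside the distal windows.

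Among 9 developmental transcription factor genes 6 had a distal region, Prdm16 with the most by far. Hes5, a Notch target, had 3 Pemt-/- regions outside it and none in Pemt+/+. The largest of them, at chr4:154346281-154347265 and 9801 bp from its 3′ end, carried 24 tags at a fold enrichment of 9.86. In the range of 18 to 24 tags, 95.3% of distal Pemt-/- regions had a Pemt+/+ counterpart. The remaining Hes5 regions carried 10 and 9 tags, and 64.7% of distal Pemt-/- regions with 8 to 10 tags had a counterpart. Ski, a repressor of TGF-beta signalling, had 3 and 5 regions, and Trp73, of the p53 family, had 1 and 5. Of 6 TNF receptor genes 4 had regions, among them Tnfrsf18 with 1 of 8 tags in Pemt-/- and 4 with 56 tags in Pemt+/+. All of these Tnfrsf18 regions lay outside the gene, and its only pair held 8 and 13 tags.

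Over all distal regions, the share inside or across a transcript was 40.2% in Pemt-/- against 39.7% elsewhere, a difference of 0.533 points whose interval included 0 (-1.49 to 2.585). In Pemt+/+ it was 42.0% against 39.9%, a difference of 2.145 points (0.395 to 3.915), and for the better-scoring 50% of regions 1.84 points, with an interval that included 0 (-0.617 to 4.35). With a window of 1 Mb the difference had the other sign in both mice, -7.25 and -6.51 points, since the last Mb held fewer regions in transcripts. No transcript lay within 10 kb of 50.02% of distal regions in Pemt-/- and 48.2% in Pemt+/+, against 51.6% and 51.2% elsewhere. Regions near a transcript thus exceeded the rest by 1.54 points in Pemt-/- (-0.532 to 3.62) and by 2.94 points in Pemt+/+ (1.16 to 4.72).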

How the data were processed

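Liver DNA was enriched for methylated fragments with a methyl-binding kit and sequenced by the authors, as 1 Pemt-/- and 1 Pemt+/+ library. The submitters' processing notes name CASAVA 1.8.2, Bowtie and mm9, and the region names in the files show the peak caller MACS. The caller's settings, its control and its handling of duplicate reads are not given in the sources used here. The labels speak of bisulphite-converted DNA, while the deposited lists give enriched regions and no base calls.

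Each deposited list gives, per region, its position in mm9, a count of tags, a score that is -10 times the log10 of the p-value, a fold enrichment, an FDR in percent and the RefSeq transcripts within 10 kb with the distance in bp. All of these were made by the authors, and the count of tags is neither scaled nor normalized. The count is per called region, so it depends on the called length, and the total reads per library were not in the lists. The deposited p-value score reached at least 50 in every longer list.

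The longer lists were reduced to 1 entry per region, and a region of the shorter list was matched by chromosome, start and end. Regions overlapping by at least 1 bp were called found in both mice, and pairs were kept where each overlapped only the other. The density elsewhere was taken from the first listed Pemt+/+ region to the window start of each chromosome. Shares have Wilson intervals, their differences Newcombe intervals and densities Poisson intervals, all 95%. Python 3.11.15, pandas 2.3.3, numpy 2.4.6 and scipy 1.17.1 were used. The calculations were checked on simulated data.

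Named regions were the 5 with the most tags, the 5 of highest score not found in the other mouse, the 3 of highest score in the shorter list and the 3 with the most tags over a 5′ end, per mouse, of which the clearest are given. Named genes were the 10 with the most distal regions, the 3 highest and 3 lowest paired regions of at least 50 tags, and fixed lists. Other genes over a 5′ end, and examples from the lists, were chosen after their values were seen. The members and lists were chosen with earlier results of these data known. 1 of the highest paired regions is not reported here. Krt85 and Tnfrsf6b were not matched to a gene identifier. Alternatives were other windows, score limits, overlaps, equal list sizes, annotation classes and leaving out chromosome 5.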

Additional observations from a re-analysis of the deposited data

How the results depend on the processing

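With 1 Mb the distal over other density was 0.657 in Pemt-/- and 0.684 in Pemt+/+, tags per Mb 0.632 and 0.643, the difference in the share inside or across a transcript -7.25 and -6.505 points (in Pemt+/+ from 2.145, the opposite sign), and the difference in the share found in the other mouse -3.34 points in Pemt+/+. With 5 Mb the density was 1.21 and 1.23, tags per Mb 1.197 and 1.24, and the quotient of the median tag ratios, distal over other, 0.976 (as reported 0.997). Without chromosome 5 the density was 0.953 and 0.963 and tags per Mb 0.903 and 0.917. With only the better-scoring 50% of regions there was a density of 0.959 in Pemt-/- and a difference in the share found in the other mouse of -2.77 points in Pemt+/+, whose interval excluded 0, as did that of -1.41 points with 5 Mb, and the transcript difference of 1.84 points in Pemt+/+ had an interval that included 0. With regions in transcripts only, the difference in the share found in the other mouse was 2.08 points in Pemt-/- (-0.459 to 4.33). The difference in the share in the shorter list was -0.809 points in that mouse. In Pemt+/+ the density was then 1.069 and tags per Mb 1.02, with a quotient of 0.967. With regions without a transcript within 10 kb only, these last 3 were 0.956, 0.930 and 1.017. The last Mb over the third Mb, with alternatives chosen after seeing the data, was 0.369 and 0.378 in transcripts and 0.544 outside them in Pemt+/+, and stayed below 1 under each of its 6 alternatives. The causes were not tested. In 74 other comparisons with an alternative the value stayed within its counting interval. No paired analysis was possible because only 1 library stood for each genotype, and for the same reason no sample could be left out. Tag counts of 8 to 13 per region limit single regions, since sharing in that range was incomplete in both mice.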
